A study of Caenorhabditis elegans with 12 samples.

Results

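A group of 157 autosomal genes, out of 17085 genes measured, gave a lower transcript level in *C. elegans* germlines that lack LIN-54, both in the presence and in the absence of MES-4. They were chosen from these values. A member had a mean log2 level of at least 7 in wild type, a *lin-54* mean at least 0.6 below wild type, and a double-mutant mean at least 0.6 below *mes-4*. Of 4848 autosomal genes that reached the wild-type level, 240 met the first difference and 257 the second. The 168 genes that met both make up 70.0% of the first list and 65.4% of the second, and 3.47% of the 4848. The rule leaves out *lin-54* itself, 7 other named genes and several eggshell and other families by symbol, which removed 11 of the 168 (*lin-54*, *tyms-1*, *cpg-3*, *fbxc-32*, *hsp-4*, *puf-5*, *egg-1*, *egg-2*, *perm-2*, *perm-4* and *inx-8*).

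Germlines were dissected from hermaphrodites 24 hr after the L4 stage at 20°, from the mitotic tip to late pachytene, and hybridized to Affymetrix GeneChip arrays. The 4 genotypes were wild type (N2), *lin-54(n3423)*, *mes-4(ok2326)* and the double mutant of both alleles (*lin-54*; *mes-4*), with 3 biological replicates of pooled germlines each. All mutants were M+Z−, that is, homozygous offspring of heterozygous mothers, so that maternal product had been supplied to the animals. The single-mutant strains were kept over the nT1 balancer of chromosomes IV and V. A level is a normalized log2 value, so that a difference of −1 is a halving, and a gene with several probe sets was given their mean. Probe sets differ in affinity, so levels are compared between genotypes and not between genes.

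LIN-54 is a DNA-binding subunit of DRM, a conserved complex of DP, E2F, a retinoblastoma-like protein and MuvB proteins that is known mainly for repressing transcription, and which also activates cell-cycle and germline genes. MES-4 is a histone methyltransferase that maintains H3K36 methylation on genes transcribed in the parental germline, and it is needed to keep the X chromosome and somatic genes silent in germ cells. Germ cells in pachytene transcribe much of the RNA that is later packed into oocytes, including products for yolk uptake, the embryo and small RNA pathways.

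The targeted genes read as labelled for *lin-54*, whose log2 level was 10.80, 10.78 and 10.86 on the wild-type arrays and between 6.32 and 7.76 on the 6 arrays of *lin-54* and the double mutant. The level of *mes-4* was 10.10 to 10.18 in wild type, 10.01 to 10.18 in *lin-54*, 9.32 to 9.49 in *mes-4* and 9.69 to 10.003 in the double mutant, and the deletion allele leaves part of the transcript to hybridize. Sperm transcripts stood apart in both genotypes without LIN-54. The median log2 level of 30 sperm genes was 6.33 to 6.45 in wild type and 6.19 to 6.46 in *mes-4*, compared with 6.97 to 9.59 in *lin-54* and 7.45 to 9.56 in the double mutant, where array 1 was the highest of both genotypes. In bulk tissue, fewer cells of a type and less RNA per cell cannot be told apart, and this holds for every difference below. The part of sperm transcripts in the values of the members was not tested.

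The gene given as the marker of the group, *dnj-26*, which encodes a J-domain protein, was not a member. Its log2 level was 8.68, 8.89 and 8.85 in wild type and 8.78, 8.29 and 8.20 in *lin-54*, so that the arrays overlapped and the difference was −0.38. In *mes-4* it was 7.21, 7.61 and 7.58, and in the double mutant 5.71, 4.41 and 5.83. The difference within the *mes-4* background was −2.15, and it fell by 2.22 without MES-4 (limma q = 2.91e-05). Of 29 J-domain genes on the array only *dnj-13* met the rule (−0.63 in *lin-54* and −0.75 in the double mutant). The group is therefore described by its rule and by its leading genes.

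The members covered a wide range of wild-type levels, and the rule fixed part of the order of the genotypes. The median log2 level over the 157 genes was 8.32 in wild type (lowest 7.01, highest 12.96), 7.38 in *lin-54*, 8.71 in *mes-4* and 7.66 in the double mutant. By the rule, only *lin-54* or the double mutant could have the lowest mean, and only wild type or *mes-4* the highest. The *lin-54* mean was the lowest of the 4 genotypes for 139 members and the double-mutant mean for 18, and the *mes-4* mean was the highest for 124. The 2 differences that chose the members had medians of −0.92 (*lin-54* minus wild type, −2.83 to −0.60) and −0.93 (double mutant minus *mes-4*, −2.43 to −0.60). Both were −1 or below for 42 members, and at least 1 of them for 87. They lay within 0.3 of each other for 106 members and 0.5 or more apart for 18.

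**Figure D1:**
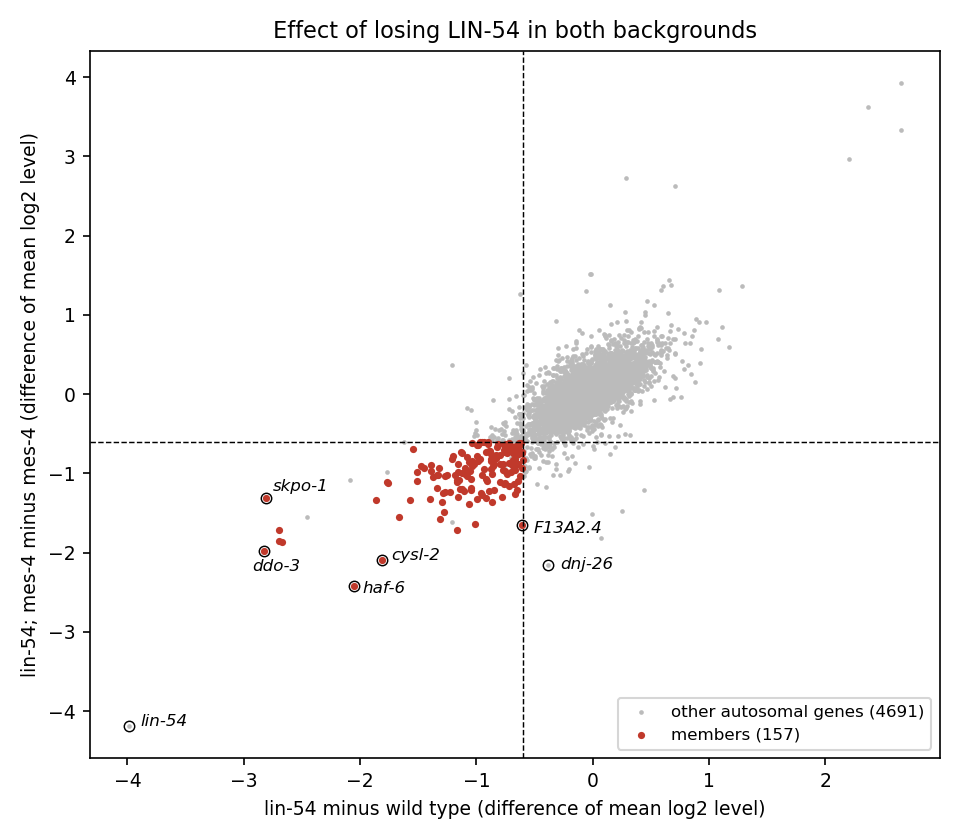
Difference of mean log2 level between *lin-54* and wild type (horizontal axis) and between the double mutant and *mes-4* (vertical axis) for 4848 autosomal genes with a wild-type mean of at least 7, with the 157 members in red and dashed lines at −0.6. The members fill the lower left corner by construction, the *dnj-26* point lies to the right of the vertical line, and *lin-54* itself is at the lower left.

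Single arrays bear on how large these differences are. Over the members, the median level was 8.41, 8.40 and 8.11 on the wild-type arrays and 7.73, 7.11 and 7.07 on the *lin-54* arrays. *lin-54* array 1 gave the highest *lin-54* value for 126 of 157 members, and *lin-54* array 3 the lowest for 109. Wild-type array 3 gave the lowest wild-type value for 114. The *mes-4* arrays (8.70, 8.73 and 8.67) and the double-mutant arrays (7.63, 7.79 and 7.65) lay closer together. All 3 *lin-54* arrays were below all 3 wild-type arrays for 131 members (10.4% of all genes and 22.1% of the 4848), all 3 double-mutant arrays were below all 3 *mes-4* arrays for 147 (10.1% and 16.8%), and both held for 123 (4.99% and 10.3%). Limma with Storey q at or below 0.05 over all 17085 genes called 128 members lower in *lin-54* (3.61% of all genes and 8.58% of the 4848), 126 lower in the double mutant against *mes-4* (5.46% and 8.48%), and 111 in both (2.34% and 5.03%). Those are the contrasts that chose the members, so nothing is read from these counts. The first fell to 61 without wild-type array 1, 82 without *lin-54* array 2 and 53 without *lin-54* array 3, and the second to 82 without double-mutant array 1.

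**Figure D2:**
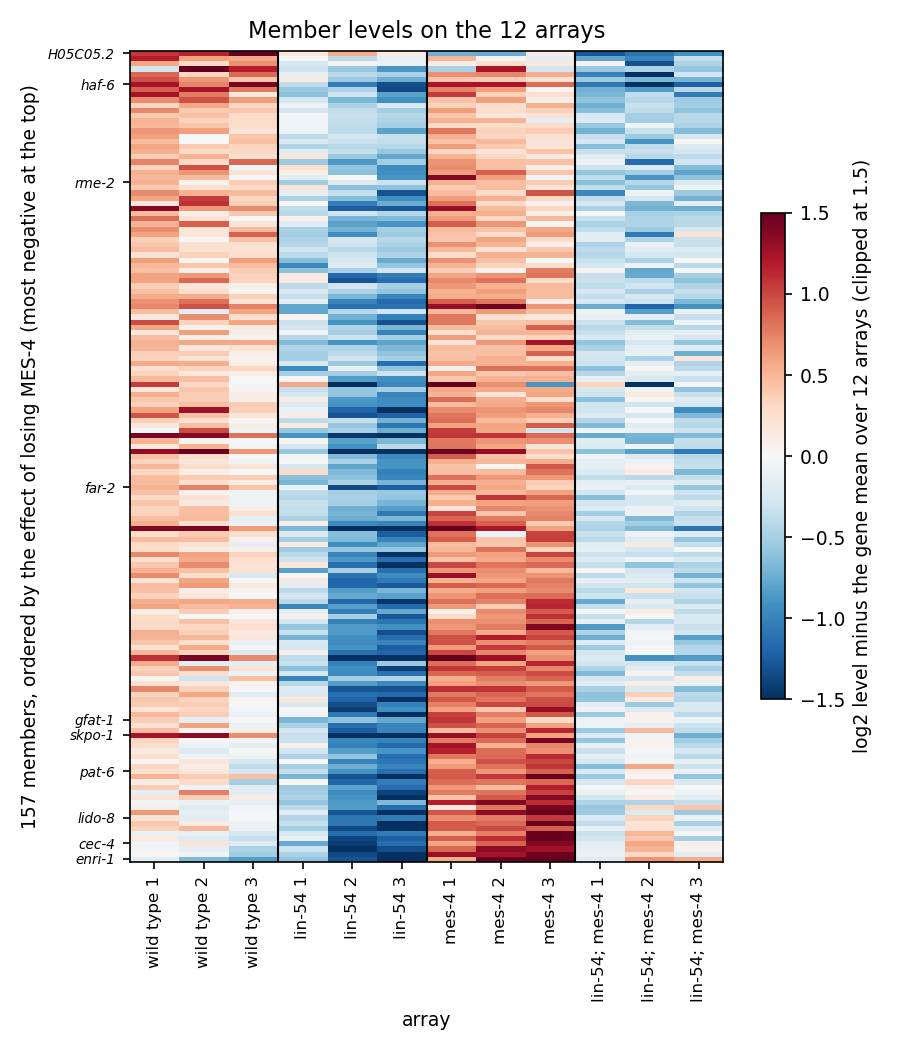
Log2 level of each of the 157 members on the 12 arrays, minus that gene's mean over the arrays, ordered by the effect of losing MES-4 from the most negative (top) to the most positive (bottom), with 10 members named. Blue columns mark *lin-54* and, more weakly, the double mutant, *lin-54* array 1 is paler than arrays 2 and 3, and the *mes-4* columns become redder toward the bottom.

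The top 7 members by the mean of both differences were *ddo-3* (−2.82 in *lin-54* minus wild type and −1.98 in the double mutant minus *mes-4*), *ctsa-1.1* (−2.70 and −1.86), *B0513.4* (−2.67 and −1.87), *haf-6*, *cht-3*, *skpo-1* and *cysl-2*. For *ctsa-1.1*, a carboxypeptidase of the cathepsin A type, the log2 level was 11.15, 11.48 and 10.77 in wild type, 9.68, 8.08 and 7.55 in *lin-54*, 11.68, 11.33 and 10.75 in *mes-4* and 9.84, 9.14 and 9.21 in the double mutant. For *cht-3*, a chitinase, it was 11.24, 11.19 and 10.63 in wild type, 8.92, 8.37 and 7.68 in *lin-54*, 10.90, 10.90 and 10.67 in *mes-4* and 9.06, 9.12 and 9.15 in the double mutant. The genotypes without LIN-54 did not overlap those with it in either gene, and the double mutant lay above 2 of the 3 *lin-54* arrays in the first and above all 3 in the second. *haf-6* encodes an ABC transporter that is needed for efficient RNAi in the germline. Its log2 level was 8.44, 7.93 and 8.62 in wild type, 6.80, 6.15 and 5.87 in *lin-54*, 8.43, 8.43 and 8.03 in *mes-4* and 6.11, 5.53 and 5.96 in the double mutant. Here the double mutant was as low as *lin-54*, and the difference was larger with MES-4 absent (−2.43) than present (−2.06). The next 5 members by the same order were *C17E7.9* (−1.67 and −1.55), *gbh-1*, an enzyme of carnitine synthesis (−1.87 and −1.34), *F54D10.7* (−1.57 and −1.34), *sri-40*, of a serpentine receptor family (−1.76 and −1.12), and *T16G1.9* (−1.17 and −1.72).

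The peroxidase gene *skpo-1* was the most unequal member. Its level was 10.45, 10.57 and 9.92 in wild type and 8.87, 7.11 and 6.52 in *lin-54*, a difference of −2.81 ± 0.47 (SE). In the absence of MES-4 the difference was −1.31, from 10.53, 10.24 and 9.81 to 9.0, 9.16 and 8.5. *lin-54* array 1 lay near the double-mutant arrays in this gene, while arrays 2 and 3 were far below them. *cht-3* (−2.70 and −1.71) and *C44B7.5* (−1.55 and −0.69) followed in the same direction, and wild-type array 1 of *C44B7.5*, at 5.81, lay just above the highest *lin-54* array, at 5.79. The opposite inequality was largest for *F13A2.4* (−0.61 and −1.65), *C06A1.4*, an annotated pseudogene (−1.02 and −1.65), and *cpl-1*, a cathepsin L protease (−0.67 and −1.26). These differences of differences share arrays with the rule and are given without a test. Their median over the members was 0.02.

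Dissected gonads can carry somatic sheath cells, and some sheath genes had the same array pattern as the leading members. *tbh-1*, which makes octopamine in sheath cells and is X-linked, had a log2 level of 9.98, 10.16 and 9.27 in wild type, 6.86, 6.73 and 5.42 in *lin-54*, 9.87, 9.99 and 10.02 in *mes-4* and 7.30, 7.83 and 7.21 in the double mutant. *inx-8*, a sheath gap junction gene left out of the group by name, went from 9.83, 10.47 and 9.79 in wild type to 8.10, 7.41 and 7.21 in *lin-54*. Over 15 sheath and somatic gonad markers, 2 were called lower in *lin-54*, namely *tbh-1* and *inx-8*, and 2 higher. In the double mutant against *mes-4*, 2 were called lower, the same 2 genes, and 1 higher. The median level of the list was 6.02 to 6.45 in wild type and 6.24 to 6.86 in *lin-54*. It was 6.11 to 6.53 in *mes-4* and 6.67 to 6.93 in the double mutant, so the list as a whole did not fall. Only 3 of the 15 are autosomal with a wild-type mean of at least 7, and the median of all genes was 5.74 to 5.81 on the wild-type arrays. The X-linked *tbh-1* is not among those 3. Near background a fall can be compressed, and whether the dim markers changed was not tested. The median of 11 intestinal markers varied within genotypes (7.4 to 8.78 in wild type, 6.36 to 8.13 in *lin-54*, 6.86 to 9.29 in *mes-4* and 6.62 to 7.43 in the double mutant), and *cpl-1* is the one member on that list. The part of either tissue in the values of the members was not tested.

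Several members encode products for the oocyte and embryo. *rme-2*, the yolk receptor of oocytes, had 13.16, 12.69 and 13.02 in wild type, 12.12, 12.46 and 12.34 in *lin-54*, 13.16, 13.09 and 13.04 in *mes-4* and 12.003, 12.22 and 12.43 in the double mutant. Every array without LIN-54 was below every array with it, and the *mes-4* values lay in or near the wild-type range. The clathrin heavy chain gene *chc-1*, whose product takes up the receptor, differed by −0.64 and −0.61 (*lin-54* minus wild type, then double mutant minus *mes-4*, as in each pair of differences), and *vha-19*, a subunit of the vacuolar ATPase, by −0.76 and −0.65. *rme-2* was the one member on a list of 21 oocyte and maternal RNA regulators. Of these, 8 were called lower in *lin-54* (3.61% of all genes) and 10 in the double mutant against *mes-4* (5.46%). *puf-5*, on the same list, met both thresholds (−0.62 and −0.73) and is left out by name. 3 members act in the germ lineage of the embryo or in the early zygote: *nos-2*, a Nanos protein of primordial germ cells (−0.75 and −1.12), *grif-1*, which clears a poly(A) polymerase activator from those cells (−0.70 and −0.65), and *allo-1*, an adaptor for autophagy of paternal mitochondria (−0.87 and −0.95). For *nos-2*, *lin-54* array 1 (9.998) lay within the wild-type values (10.03, 10.31 and 9.95), while arrays 2 and 3 were at 9.28 and 8.76.

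Division and chromatin genes were a further role group of 7, written after the values were seen. The fixed lists of mitosis and cell cycle (32 genes), DNA replication (30) and meiotic prophase and recombination (30) held 0 members. *tyms-1*, on the replication list, is left out by name. *rmd-1*, a regulator of microtubules in chromosome segregation, had 12.75, 12.75 and 12.55 in wild type and 11.85, 11.51 and 11.20 in *lin-54*, then 12.75, 12.76 and 12.67 in *mes-4* and 11.84, 11.94 and 11.77 in the double mutant. The chromokinesin gene *klp-19* differed by −0.69 and −0.74, *memi-2*, which acts in the second meiotic division, by −0.65 and −0.76, and the phosphatase gene *cdc-25.3* by −1.13 and −1.2. *his-62* (−0.86 and −0.90) belongs to a histone family of nearly identical copies, so its probe set can read other copies.

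Metabolic enzymes were the largest group by role, with 17 members. They include glycogen phosphorylase (*pygl-1*, −0.88 and −0.82), phosphoenolpyruvate carboxykinase (*pck-2*, −0.95 and −1.03), aldolase (*aldo-2*, −0.65 and −0.70) and *gfat-1*, the entry enzyme of the hexosamine pathway (−0.76 and −0.70). *gln-6*, a glutamine synthetase, had 12.93, 12.69 and 12.67 in wild type, 12.17, 12.05 and 11.91 in *lin-54*, 12.94, 12.68 and 12.86 in *mes-4* and 12.07, 12.31 and 12.26 in the double mutant. *cysl-2*, a cysteine synthase-like enzyme with 6.97, 7.2 and 6.99 in wild type, read 5.47, 5.13 and 5.13 in *lin-54*, 7.56, 7.70 and 6.91 in *mes-4* and 5.5, 5.04 and 5.35 in the double mutant. Both genes separated the genotypes by LIN-54 without overlap. The fatty acid synthase gene *fasn-1* (−0.94 and −0.60) and the S-adenosylmethionine synthetase gene *sams-4* (−0.66 and −0.68) lay near the threshold. *acdh-1*, an acyl-CoA dehydrogenase (−1.17 and −1.11), was the least repeatable of this group, with 7.77, 7.03 and 6.71 in wild type and 7.29, 4.97 and 5.74 in *lin-54*.

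A role group of the ER (endoplasmic reticulum) and Golgi, written after the values were seen, held 4 members. The BiP gene *hsp-4* (−0.78 and −0.76) is left out by name, and *xbp-1* (−1.02 and −0.53), the transcription factor of the unfolded protein response, would have missed the second threshold. *enpl-1*, the GRP94 chaperone of the ER, met the rule with −0.62 and −0.61, its neighbour *imp-2*, an intramembrane protease, with −0.90 and −0.64, and *erp-44.2* and *unc-50*, of the ER and Golgi, with −0.69 and −0.87, and −0.80 and −0.88. Of 19 ER protein-folding genes, 7 were called lower in *lin-54* (3.61% of all genes) and 8 in the double mutant against *mes-4* (5.46%). Without MES-4, 11 of the 19 were called higher (6.05% of all genes) and 1 lower (5.7%). The lists of ER translocation and N-glycosylation (19 genes) and of secretory vesicle coats and tethers (17) held 0 members. In these lists 4 and 3 genes were called lower in *lin-54*, and 1 of each in the double mutant against *mes-4*. The second BiP gene, *hsp-3*, is X-linked and so no member. It had 9.35, 9.01 and 8.75 in wild type and 7.57, 7.38 and 6.76 in *lin-54*.

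Transcription factors made up 11 members. The T-box genes *tbx-9* (−1.23 and −1.23) and *tbx-36* (−1.37 and −1.05), the AP-2 gene *aptf-2* (−1.33 and −1.02) and the Pbx homeodomain gene *ceh-20* (−1.06 and −1.39) differed most. For *tbx-9* the level was 8.21, 8.25 and 7.94 in wild type, 7.73, 6.43 and 6.57 in *lin-54*, 8.20, 8.28 and 8.41 in *mes-4* and 7.26, 6.84 and 7.10 in the double mutant. Again *lin-54* array 1 was the closest to wild type. The nuclear receptors *nhr-70* and *nhr-256*, the zinc finger gene *die-1* and the ONECUT homeodomain gene *ceh-49* lay between −0.60 and −1.0 in both differences. Receptors and adhesion genes gave 5 members, among them *ilcr-2*, an interleukin-17 receptor (−1.27 and −1.04), the galectin gene *lec-5* (−1.32 and −0.93) and *cam-1*, a Ror receptor tyrosine kinase (−0.89 and −0.72). *far-2*, a secreted fatty acid and retinol binding protein, had 12.09, 12.34 and 12.002 in wild type, 11.5, 10.23 and 10.35 in *lin-54*, 12.57, 12.17 and 11.91 in *mes-4* and 11.49, 11.37 and 11.01 in the double mutant. No array without LIN-54 reached the lowest array with it.

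The effect of losing MES-4, averaged over both LIN-54 states, was not itself used to choose the members. Its weights are orthogonal to both differences that were, but it shares their arrays and the minimum on the wild-type level. It is uncorrelated with them only where the genotypes vary equally, and they did not. The median over the members ran from 7.07 to 7.73 on the *lin-54* arrays and from 8.67 to 8.73 on the *mes-4* arrays. The calls below are therefore not independent of the choice of members. Of 157 members, 53 (33.8%) were called higher without MES-4 and 2 (1.27%) lower (limma, Storey q at or below 0.05 over all genes). Among all 17085 genes the shares were 6.05% higher (1033 genes) and 5.7% lower (974), and among the 4848 autosomal genes with the same minimum 5.03% and 12.3%. The median effect over the members was 0.31 (−1.55 to 1.73, above 0 in 137 of 157), compared with −0.05 over all genes and over the 4848. It was above 0 in *mes-4* minus wild type for 124 members, in the double mutant minus *lin-54* for 139, and in both for 118. The arrays without MES-4 all lay above those with it, in both LIN-54 states, for 21 members (3.49% of all genes and 2.37% of the 4848), and all below for 1, *H05C05.2* (3.34% and 6.85%). The count of 53 depended on single arrays. It was 35 without wild-type array 3, 34 without *lin-54* array 3 and 86 without *lin-54* array 1, beside 3.28%, 3.05% and 6.42% of the 4848 in the same fits. The median of *lin-54* minus wild type moved along with it, to −1.13 without *lin-54* array 1 and −0.81 without *lin-54* array 3. It was 81, beside 5.61%, when *lin-54* array 1 and double-mutant array 1, the arrays with most sperm transcripts, were left out together, an alternative chosen after the data were seen. With every array centred on its autosomal median, 54 members were called higher and 2 lower, while the split over all genes moved from 51.5% higher among calls to 70.4% (1086 higher and 456 lower).

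**Figure D3:**
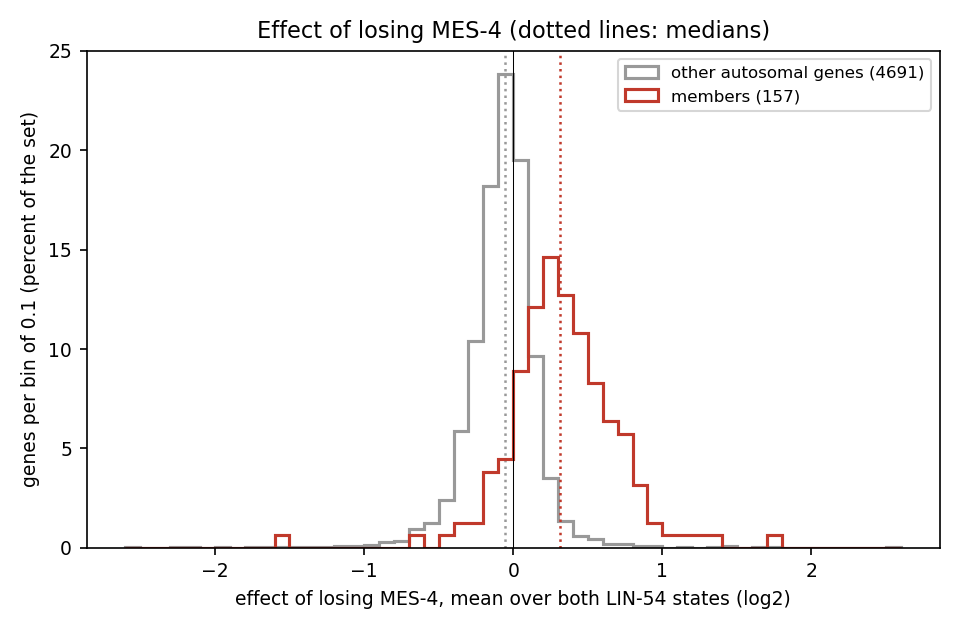
Distribution of the effect of losing MES-4 (mean of *mes-4* and the double mutant minus mean of wild type and *lin-54*, log2) for the 157 members (red) and the other 4691 autosomal genes with a wild-type mean of at least 7 (grey), as the percentage of each set per bin of 0.1. Dotted lines mark the medians, which is 0.31 for the members, and the red outline lies to the right of the grey one.

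The share called higher was above that of autosomal genes at each wild-type level. Members with a wild-type mean under 8 were called higher in 30 of 60 cases (50.0%, compared with 12.1% of autosomal genes in that range), those from 8 to 10 in 14 of 61 (23% and 3.77%), and those of at least 10 in 9 of 36 (25% and 3.8%). The same effect is given for neighbouring sets as a description. Of 77 X-linked genes that meet the same thresholds 76.6% were called higher, of 89 autosomal genes lower only in the *mes-4* background 30.3%, of 72 lower only in the wild-type background 8.33%, and of 4377 autosomal genes past neither threshold in either direction 3.52%. Of the 53 members, 32 were called with each of the 12 arrays left out in turn, and 34 have a probe set that is not shared with other transcripts or genes.

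The 3 members that rose most without MES-4 belong to small RNA pathways, a role group of 6 written after the values were seen. *enri-1*, named for RNAi inheritance, had 8.19, 7.68 and 7.51 in wild type, 7.75, 7.05 and 6.71 in *lin-54*, 8.90, 9.96 and 10.31 in *mes-4* and 8.16, 9.01 and 8.90 in the double mutant. It rose by 1.73 ± 0.26 (SE, limma q = 0.000817) without MES-4, and the lowest double-mutant array still lay among the wild-type arrays. *vsra-1*, an Argonaute, had 8.74, 8.67 and 8.19 in wild type, 8.22, 7.35 and 7.03 in *lin-54*, 9.996, 9.96 and 10.18 in *mes-4* and 8.61, 9.02 and 8.53 in the double mutant, with an effect of 1.35 ± 0.18 (limma q = 0.000384). Its *mes-4* arrays stood above all others, and its double-mutant arrays lay in the wild-type range except array 2, which was above it. *alg-2*, an Argonaute of the microRNA pathway, had 8.01, 7.91 and 7.57 in wild type, 7.72, 6.46 and 6.71 in *lin-54*, 8.90, 9.39 and 9.30 in *mes-4* and 7.91, 8.56 and 8.11 in the double mutant (1.3 ± 0.2, limma q = 0.000968). *lin-54* array 1 lay among the wild-type values in all 3 genes. *enri-1* and *vsra-1* are measured by shared probe sets alone, and *alg-2* is not. The other members of the group, *haf-6*, *simr-1* (siRNA amplification, −0.70 and −0.71) and *wago-2* (annotated as a pseudogene of the Argonaute family, −0.98 and −0.64), had MES-4 effects of −0.22, 0.06 and 0.12 that did not pass the test. On the separate list of 22 Argonautes and small RNA factors, of which *alg-2* is the one member, 2 were called higher and 3 lower without MES-4.

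**Figure D4:**
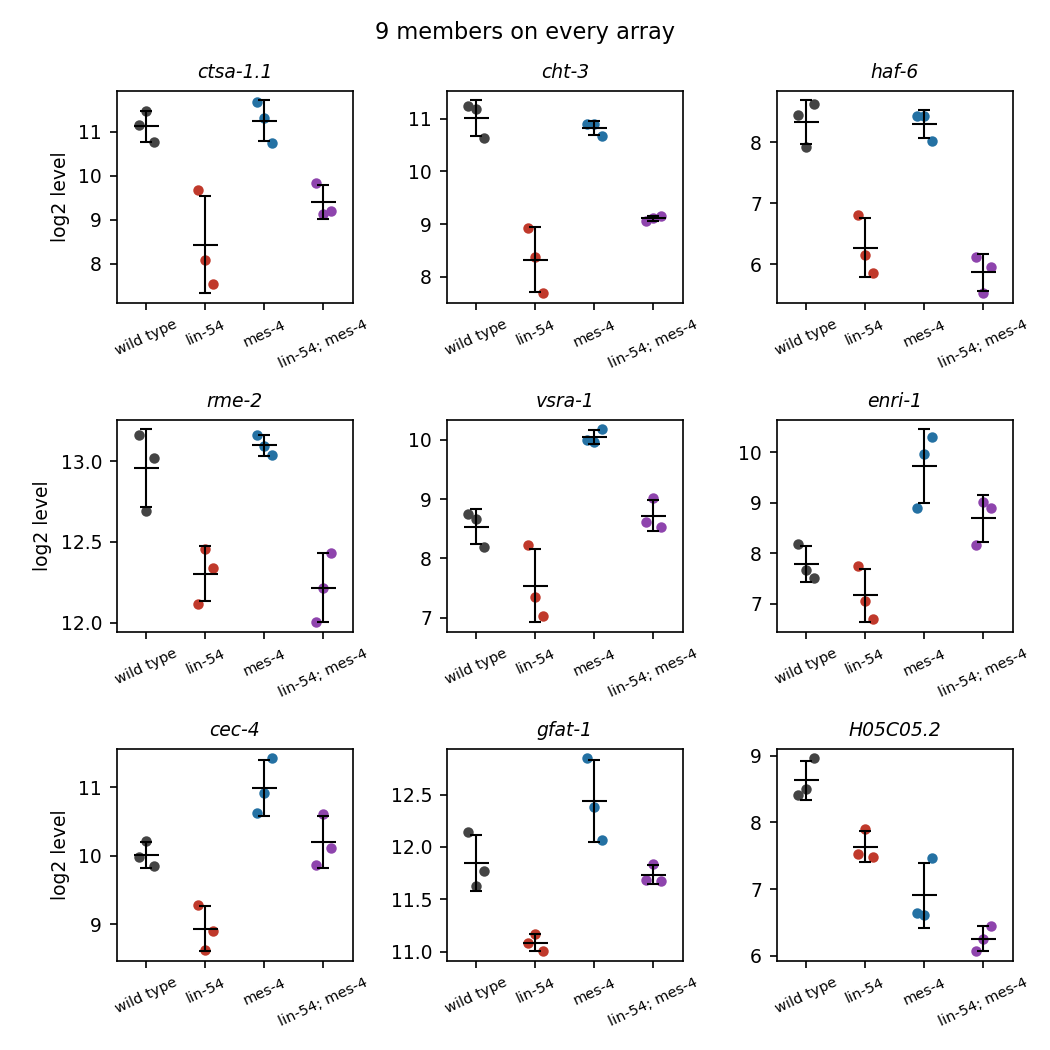
Log2 level of 9 members on every array, by genotype, with each point an array and the black bars the mean ± SD of 3 arrays. *ctsa-1.1*, *cht-3*, *haf-6* and *rme-2* separate by LIN-54, *vsra-1*, *enri-1*, *cec-4* and *gfat-1* are also higher in *mes-4*, and *H05C05.2* is lower without either factor. The vertical axes differ between panels and do not start at 0.

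Chromatin, signalling and metabolic genes were also among the members that rose without MES-4. *cec-4*, which anchors H3K9-methylated chromatin at the nuclear periphery, had 9.98, 10.22 and 9.85 in wild type, 9.28, 8.62 and 8.90 in *lin-54*, 10.63, 10.92 and 11.43 in *mes-4* and 9.87, 10.62 and 10.11 in the double mutant (1.12 ± 0.17, limma q = 0.000765). *gfat-1* had 12.14, 11.63 and 11.77 in wild type, 11.09, 11.17 and 11.01 in *lin-54*, 12.85, 12.39 and 12.07 in *mes-4* and 11.69, 11.84 and 11.68 in the double mutant (0.62 ± 0.12, limma q = 0.00488). In both genes *lin-54* had the lowest mean and *mes-4* the highest, and the double mutant overlapped wild type. *pat-6*, a parvin of integrin adhesions, rose by 0.74, the microtubule regulator gene *rmd-2* by 0.59, the ubiquitin-activating enzyme gene *uba-1* by 0.40 and the K-Cl cotransporter gene *kcc-1* by 0.35. All 4 were called with each array left out in turn. *gfat-1*, *pat-6*, *rmd-2* and *uba-1* are measured by shared probe sets alone, and *cec-4* and *kcc-1* are not. Among the transcription factors *lsy-27* (0.72), *ztf-25* (0.60) and *ceh-20* (0.49) were called higher, the last in 4 of 12 fits with 1 array left out, and *aldo-2* (0.25) was likewise called in 4 of 12 and *try-1*, a trypsin-like protease gene (0.35), in 2 of 12. None of the 3 members of yolk uptake and none of the 3 of the germ lineage was called by limma in either direction (0 of 6 by q, 1, *chc-1*, at an unadjusted p under 0.05), and their effects ranged from −0.13 to 0.28.

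Both members called lower without MES-4 are also lower without LIN-54, which the rule requires of every member. *H05C05.2* had 8.41, 8.51 and 8.96 in wild type, 7.53, 7.90 and 7.48 in *lin-54*, 6.64, 6.61 and 7.47 in *mes-4* and 6.07, 6.26 and 6.45 in the double mutant, an effect of −1.55 ± 0.16 (SE, limma q = 4.86e-05). The 4 genotypes formed 4 levels, with all *mes-4* arrays below all *lin-54* arrays. *atfs-1*, the transcription factor of the mitochondrial unfolded protein response, had 9.92, 9.35 and 9.30 in wild type, 8.73, 8.33 and 8.61 in *lin-54*, 9.24, 8.69 and 8.59 in *mes-4* and 7.94, 7.74 and 8.38 in the double mutant (−0.61 ± 0.15, limma q = 0.0169). Both genes are measured by shared probe sets alone.

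**Figure D5:**
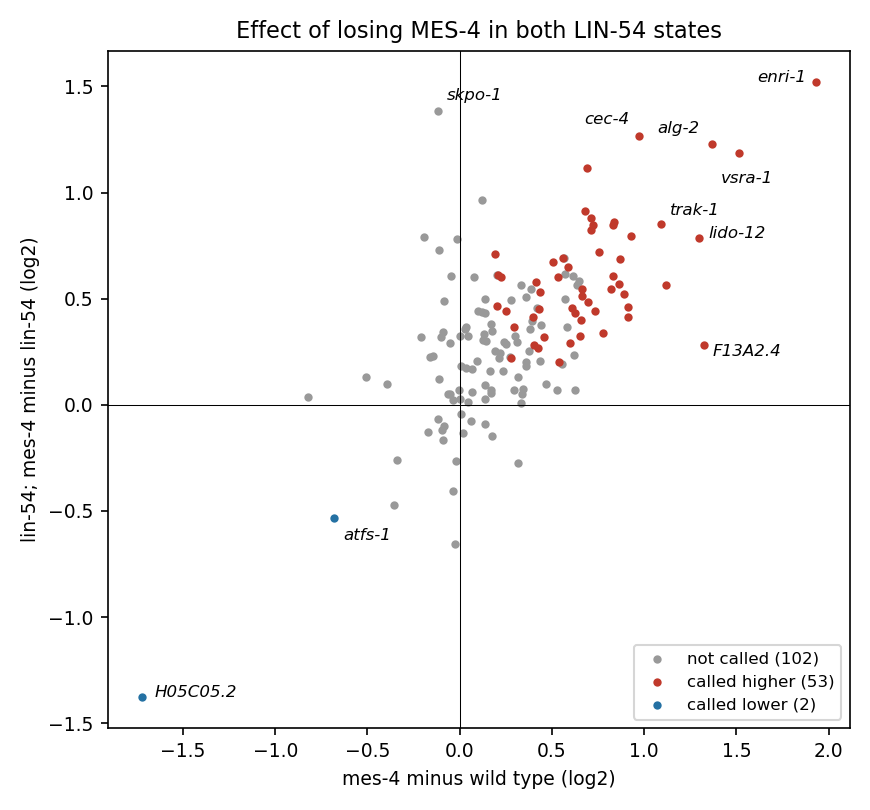
Effect of losing MES-4 on the log2 level of the 157 members, with LIN-54 present (*mes-4* minus wild type, horizontal axis) and absent (double mutant minus *lin-54*, vertical axis). Members called higher (53, red) lie in the upper right, the 2 called lower (blue) in the lower left, and *F13A2.4* and *skpo-1* are the points far from the diagonal.

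In the double mutant most members stopped short of the wild-type level. The double-mutant mean lay between those of *lin-54* and wild type for 132 members, at or below *lin-54* for 18, and at or above wild type for 7. The median of the double mutant minus wild type was −0.61 (−2.46 to 0.90). The 7 members at or above wild type were *enri-1* (0.90), *alg-2* (0.36), *trak-1* (0.21), *vsra-1* (0.19), *cec-4* (0.18), *C53D5.1* (0.10) and *lido-12* (0.0027). These values share arrays with the rule and with the effects above, so they are given side by side and not tested.

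Members lay on all 5 autosomes. Chromosomes II, V and IV held 41, 39 and 36, and I and III held 25 and 16. Per 100 genes with the same wild-type minimum this is 4.32 on II, 4.99 on V, 4.03 on IV, 2.19 on I and 1.48 on III. Of 149 members in the order of protein-coding genes (RefSeq, WBcel235), 9 had another member as the next gene, in 5 pairs, and 31 lay in 13 groups whose members are at most 5 places apart. *lido-8* and *lido-9* are neighbours, with *lido-12* within a span of 5 genes, and their MES-4 effects were 0.85, 0.63 and 1.04, of which the first and the last passed the test. Another member of that name on II, *lido-13*, had an effect of 0.30 that did not pass. *imp-2* lies next to *enpl-1*, *folt-3*, a folate transporter gene, next to *C50E3.11*, and *F14H3.4*, *F14H3.5* and *F14H3.6* form a run of 3. The level of *F14H3.6* was 11.01, 10.83 and 10.62 in wild type and 10.14, 9.63 and 9.14 in *lin-54*, and *F14H3.4* and *F14H3.5* read 7.24, 7.41 and 6.93, and 7.87, 7.68 and 7.64, in wild type. The remaining 8 members are annotated as pseudogenes, among them *C06A1.4* (10.86, 10.33 and 10.86 in wild type, 9.88, 9.60 and 9.52 in *lin-54*) and *wago-2* (11.40, 10.82 and 11.40, then 10.14, 10.52 and 10.02). Of the 157, 124 have 1 probe set and 57 are measured only by probe sets shared between transcripts or genes, so the signal of related copies cannot be separated for those.

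The thresholds cut through a continuous range. On the wild-type level, *calu-2* (7.01) and *Y105C5B.19* (7.02) were just inside and *sma-1* (6.995) and *unc-112* (6.96) just outside. On *lin-54* minus wild type, *ptp-3* (−0.602) and *nra-4* (−0.606) were inside and *F22B8.7* and *cdc-26* (both −0.597) outside. On the double mutant minus *mes-4*, *die-1* and *fasn-1* (both −0.603) were inside and *F54D11.3* (−0.599) and *pmt-2* (−0.589) outside.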

How the data were processed

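The values are the log2 probe-set levels deposited by the authors, who used affy for quantile normalization and the robust multichip average (RMA) and tested with limma and Storey q-values (versions not given in the sources used here). They were not normalized again. Of 22548 probe sets, 20766 name 1 gene and 20701 matched RefSeq, which gave 17085 genes (14722 autosomal). A gene took the mean of its probe sets. In limma 3.58.1 (R 4.3.3), the model had 1 mean for each genotype over the 12 arrays, and Storey q was computed over all genes for each comparison, with a threshold of 0.05. The effect of MES-4 loss was the mean of *mes-4* and the double mutant minus the mean of wild type and *lin-54*. The model was tested on simulated data in which each gene had the same spread in all genotypes and changed genes were drawn at random. That test does not cover unequal spread or the choice of members by the rule.

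The members, marker lists and tests were chosen with earlier results of these data known, including the opposite effects of MES-4 and LIN-54 on many genes, so the MES-4 effect is no independent support of that pattern. Groups by role were written after the values were seen. Named genes were the top 12 members by both LIN-54 differences, 5 by wild-type level, up to 5 by called MES-4 effect in each direction, 3 by inequality in each direction, those at the thresholds, up to 4 members per marker list and adjacent members. Other members were named for a known role, after their values were seen. Alternatives were leaving out each array, a replicate block, array centring, no shared probe sets, Benjamini-Hochberg adjustment, a minimum mean level of 6, the most significant probe set, every probe set of a gene, 2 genotypes per fit and other thresholds. Replicates were biological, and 3 arrays per genotype limit the precision. Promoter motifs were not analysed here.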

Additional observations from a re-analysis of the deposited data

How the results depend on the processing

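The group held 131 to 179 genes when each array was left out in turn, 102 without probe sets shared between transcripts or genes, 81 with both differences at most −0.8, 42 at −1, and 97 with a wild-type mean of at least 8. Leaving out 1 array, members called lower ranged from 53 to 144 in *lin-54* and from 82 to 144 in the double mutant, members called higher without MES-4 from 34 to 86 and lower from 2 to 3. The medians ranged from −1.131 to −0.805 (*lin-54*, where the lowest is without *lin-54* array 1), from −0.989 to −0.904 (double mutant) and from 0.25 to 0.415 (MES-4 loss). Without shared probe sets, which leaves 100 members, the 4 counts were 83, 76, 34 and 0. That removes both members that fell without MES-4. Without the *lin-54* and double-mutant arrays of highest sperm level, 81 members were called higher without MES-4.

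Same-numbered arrays of different genotypes deviated together in part (r from −0.049 to 0.436), and 10 of 12 arrays correlated best with their own number. The paper states that the genotypes were handled in parallel, but the labels do not say whether equal numbers share a batch. The main fits have no replicate term, so a shared batch would add to their spread. With a replicate block the 4 counts were 139, 134, 65 and 3, beside 128, 126, 53 and 2 without it. The rule set the sign of the medians of both LIN-54 differences, so their sign says nothing about robustness. The median MES-4 effect stayed above 0 in each alternative where it was computed, and the counts moved as given above. Cross-hybridization and compression near background limit the weakest members.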
